A study of Mus musculus with 16 samples.

Results

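The comparison described here sets glomeruli of wild type mice 6 days after nephrotoxic serum against glomeruli of untreated wild type mice. It holds 4 of the 16 arrays of the series, chosen by their titles: the 2 wild type arrays at 6 days and the 2 untreated wild type arrays, each from 1 female mouse. Wild type mice were C57Bl/6. The treated mice had received serum from sheep, intraperitoneally at 8 ul per g of body weight, to start a nephritis directed at the glomerular basement membrane, and the labels name no control serum for the untreated mice. The rest of the series comprised wild type mice at 18 hours and 2 weeks and mice of the strain B6.ERαKO, which lack oestrogen receptor alpha, at the same 4 stages, again with 2 mice a group. In what follows the B6.ERαKO mice are called knockout mice. Their untreated and 6-day arrays serve as a second measurement of the same interval, in other mice, though the test uses the same spread per gene for both genotypes. RNA came from glomerular extracts of kidney cortex, so every value is an average over all cells in the extract.

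A glomerulus filters blood through fenestrated endothelium, a basement membrane and the foot processes of podocytes, and mesangial cells hold its capillary loops together. Antibodies of another species planted on the basement membrane recruit complement, Fc receptor-bearing leukocytes and clotting factors, and the host later makes antibodies of its own against the foreign immunoglobulin. In this model the injured tuft is known for leukocyte influx, fibrin deposits, proliferation of resident cells and contractile activation of the mesangium.

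Values are the log2 values as deposited, and because 152 of 30142 genes (0.504%) averaged more than a 16-bit scanner can read, some transformation that is not stated was applied. Differences are therefore called deposited log2 units and not turned into folds. Array medians ran from 5.57 to 5.9. No gene's level is set against another gene's. Within untreated wild type 158 genes differed by more than 1 unit between the replicates, and at 6 days 197 did. In the other groups this number ran from 76 to 2834, and the highest was that of knockout mice at 2 weeks. Genes with higher levels in male kidney set the replicate 2 arrays of both 18-hour groups beside the other genotype: the mean of 15 such genes was 9.81 and 15.80 in the wild type pair and 14.96 and 9.62 in the knockout pair. None of these doubtful arrays belongs to the 4 compared here, where the same mean lay at 10.37 and 9.96 untreated and at 10.26 and 10.08 at 6 days, but they enter the spread used by the test. Results without them are called those of the 14 arrays (without both 18-hour replicates 2) and of the 13 arrays (also without knockout 2 weeks replicate 1).

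The labelled tissue was borne out in part. Of 20 podocyte markers 17 were measured, and their mean was 9.93 and 9.22 in the untreated arrays (replicates 1 and 2, the order used throughout) and 10.56 and 9.95 at 6 days. Podxl, which encodes the main sialoprotein of the podocyte surface, stood at 14.25 and 13.21 untreated and at 15.33 and 14.67 at 6 days. Proximal tubule markers were present as well, with a mean over 18 genes of 15.30 and 15.74 untreated and 15.18 and 14.87 at 6 days. Both untreated arrays thus had the higher tubule mean and both 6-day arrays the higher podocyte mean, the latter by a narrow gap. The part that this difference in tubule RNA plays in the results below was not tested, but the counts of 6 lists (cell cycle, immediate early, type I interferon, MHC class I, macrophage and coagulation) are also given from a fit with the tubule mean minus the podocyte mean as a covariate. In such bulk extracts fewer cells of a type and less RNA per cell cannot be told apart.

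At 6 days after serum the wild type arrays had more RNA of Tagln, Myl7 and Rhoc, whose products act on actin and myosin, of the vasodilator peptide adrenomedullin (Adm), of the immediate early gene Nr4a1, of cell cycle genes, of interferon-responsive genes and of genes of macrophages. Single genes did not pass the test across all genes: limma with Benjamini-Hochberg adjustment called 0 of 30142 at an adjusted p under 0.05, and the smallest adjusted p was 0.0990. At an unadjusted p under 0.05 there were 2106 genes (6.99%), of which 1380 (4.58%) lay higher and 726 (2.41%) lower at 6 days. Both 6-day arrays were above both untreated arrays for 7611 genes (25.3%) and below both for 5111 (17%). A difference of at least 1 unit upward was seen for 293 genes (0.972%) and of at least 1 unit downward for 73 (0.242%), and the median over all genes was 0.03. With the tubule covariate 4 genes passed and 3422 had an unadjusted p under 0.05 in either direction, against 2106 without it. List counts from that fit are to be read against the larger number. The number over all genes changes with each fit, and for fits without 1 array it is not set beside the list counts.

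The count of 0 depended on the spread borrowed from the other groups. For a group outside the comparison, leaving out either array takes away that group's whole part of the spread. Fits that differ only in which of its arrays was left out are therefore almost the same fit. Their agreement is fixed by the design and is not a separate result. Without knockout 2 weeks replicate 1, or without replicate 2 of that group, 42 genes passed, and they were the same 42 genes, of which 34 were higher and 8 lower. Without either knockout 18-hour array 1 gene passed, Ch25h, which makes an oxysterol and is named because it was that single call. The 13 arrays gave 2 calls, Adm and Ch25h, and the 14 arrays 0. A further fit, chosen after the data were seen, averaged the 6-day difference over wild type and knockout, and 207 genes (0.687%) were called higher and 61 (0.202%) lower in it. That count of 268 became 32 with the 14 arrays and 804 with the 13 arrays. The average includes the wild type arrays, so a call in it is not a separate test of the wild type difference.

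The 10 named genes with the smallest p-values were all higher at 6 days, with adjusted p from 0.0990 to 0.204, and none passed. Their values by array are plotted beside those of the knockout. H2ac15, a core histone gene of the H2A cluster, stood at 4.64 and 4.63 untreated and at 6.42 and 6.78 at 6 days. This difference of 1.97 ± 0.23 (SE; adjusted p = 0.0990) had the smallest p of all genes, and histone H2A genes are so alike that other copies may share its signal. Adm stood at 9.48 and 8.52 untreated and at 13.72 and 13.70 at 6 days, 4.71 ± 0.77 higher (SE; adjusted p = 0.158), the largest difference of the 10. The 6-day arrays of Adm were nearly equal and the untreated arrays were further apart.

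**Figure D1:**
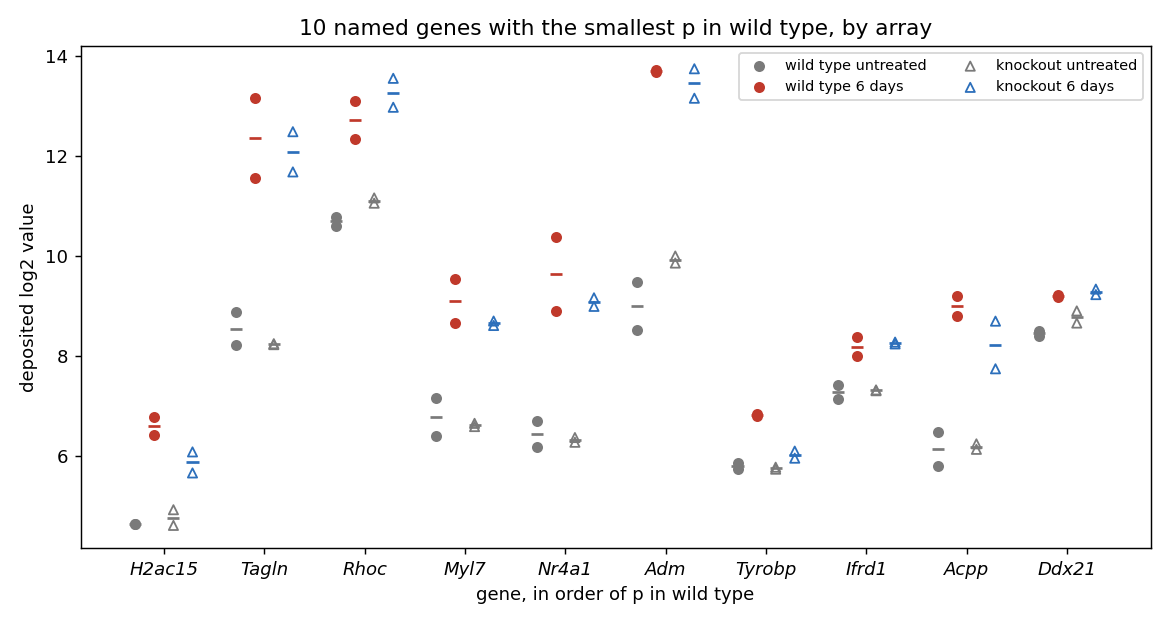
Deposited log2 values of the 10 named genes with the smallest p in wild type, with 1 point per array, a short line at each group mean, filled circles for wild type, open triangles for knockout, grey for untreated and colour for 6 days. In every gene both 6-day wild type arrays lie above both untreated ones, and Tyrobp is the gene with the smallest knockout difference, 0.27.

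Tagln, Rhoc and Myl7 followed H2ac15 in the order of p. Tagln encodes transgelin, an actin-binding protein of smooth muscle and of activated mesangial cells and fibroblasts. It stood at 8.87 and 8.22 untreated and at 11.57 and 13.17 at 6 days, a difference of 3.82 ± 0.56 (SE; adjusted p = 0.155). Rhoc, a small GTPase that organises actin, stood at 10.61 and 10.79 and then at 12.34 and 13.11, which is 2.02 ± 0.30 higher (SE; adjusted p = 0.155). Myl7, a regulatory light chain of myosin known from cardiac atria, went from 7.15 and 6.39 to 8.66 and 9.54. The groups did not overlap in any of these 3 genes, and the gap between them was wider than the gap within either group. Vim, the intermediate filament vimentin, was outside the 10. It was among the 15 largest differences at an unadjusted p under 0.05, which ran from 4.71 in Adm to 2.39 in Mki67 and also held Plk3, Tnfrsf12a, Ednrb, Myadm, Anxa3, Aplp1 and Emp3. Its values were 8.95 and 8.30 untreated and 11.56 and 12.34 at 6 days, 3.33 ± 0.81 higher (SE; adjusted p = 0.365).

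The remaining genes of the 10 cover signalling, immune and growth functions. Nr4a1, an orphan nuclear receptor induced within minutes of many stimuli, stood at 6.70 and 6.19 untreated and at 8.91 and 10.38 at 6 days, 3.20 ± 0.51 higher (SE; adjusted p = 0.155). Tyrobp, the adaptor of activating receptors on myeloid and natural killer cells, went from 5.73 and 5.86 to 6.85 and 6.81. Its replicates were close in both groups, and the difference was 1.03 ± 0.17 (SE; adjusted p = 0.165). Acpp, an acid phosphatase that also acts on extracellular nucleotides, was 2.86 ± 0.50 higher (SE). Ifrd1, a transcriptional coregulator, and Ddx21, a nucleolar helicase of ribosome production, were higher by smaller amounts, 0.91 ± 0.16 and 0.75 ± 0.13 (SE). All 10 were also higher in knockout mice at 6 days, 9 of them at an unadjusted p under 0.05, with adjusted p from 0.0692 to 0.875. For 2 of them, H2ac15 and Tyrobp, the knockout response minus the wild type response was -0.86 and -0.76. Both had an unadjusted p under 0.05 in limma, against 0.763% of all genes in that direction, and neither passed. The 10 had been picked by their wild type p, and the test uses the same spread per gene in both genotypes. A small p in knockout is thus not wholly separate evidence. In the average over genotypes all 10 passed, with adjusted p from 0.00733 to 0.0396. With the 14 arrays 6 of the 10 did, and Adm, Tyrobp, Acpp and Ddx21 had adjusted p of 0.0507, 0.0680, 0.0672 and 0.0700. Without either knockout 2 weeks array 8 of the 10 passed in wild type alone, all but Ifrd1 and Ddx21.

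Fewer genes lay lower, and the differences were smaller. The 8 named genes with the smallest p among them, chosen after their values were seen, had adjusted p from 0.204 to 0.322. Polg2, the accessory subunit of the mitochondrial DNA polymerase, stood at 8.58 and 8.51 untreated and at 7.86 and 7.58 at 6 days, a difference of -0.83 ± 0.15 (SE). Slc43a2, a transporter of neutral amino acids, went from 10.09 and 10.22 to 9.18 and 8.81, a difference of -1.16 ± 0.23 (SE). The others were Zfp39, Fbxo21, Garem1, Adat1, Msmp and Pfkm, the muscle-type phosphofructokinase, with differences from -0.65 to -0.49. In the average over genotypes 6 of the 8 were called lower, and Adat1 and Msmp were not. With the 14 arrays 2 were, Polg2 and Garem1.

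Cell cycle genes lay higher as a group. Of 28 listed genes 26 were measured, and 20 of them lay higher at an unadjusted p under 0.05 and none lower, against 4.58% of all genes higher. Both 6-day arrays were above both untreated arrays for 24 of the 26, against 25.3% of all genes. The median difference was 0.80, against 0.03 over all genes, and single members ran from -0.11 to 2.39. The mean of the 26 genes was 5.84 and 6.02 untreated and 6.71 and 7.01 at 6 days. Leaving out untreated replicate 1 took the count from 20 to 13, and leaving out 6-day replicate 2 took it to 11. With the tubule covariate it was 16, with a median of 0.58, against 3422 of all 30142 genes in either direction in that fit. In the average over genotypes 16 members passed with all 16 arrays, 1 with the 14 arrays and 20 with the 13 arrays.

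Among them, Mki67, the proliferation antigen Ki-67, stood at 6.17 and 6.78 untreated and at 8.48 and 9.26 at 6 days, 2.39 ± 0.81 higher (SE; adjusted p = 0.543). Top2a, the topoisomerase that untangles replicated chromosomes, went from 5.36 and 5.57 to 7.04 and 7.33, 1.72 ± 0.46 higher (SE; adjusted p = 0.441). Nusap1 and Tpx2, which build the mitotic spindle, were higher by 1.43 ± 0.42 and 1.41 ± 0.27 (SE). Replicates of these genes differed less from each other than the groups did, as the plot of all 26 genes shows. With the wild type arrays alone in the fit Top2a passed, at an adjusted p of 0.0404.

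**Figure D2:**
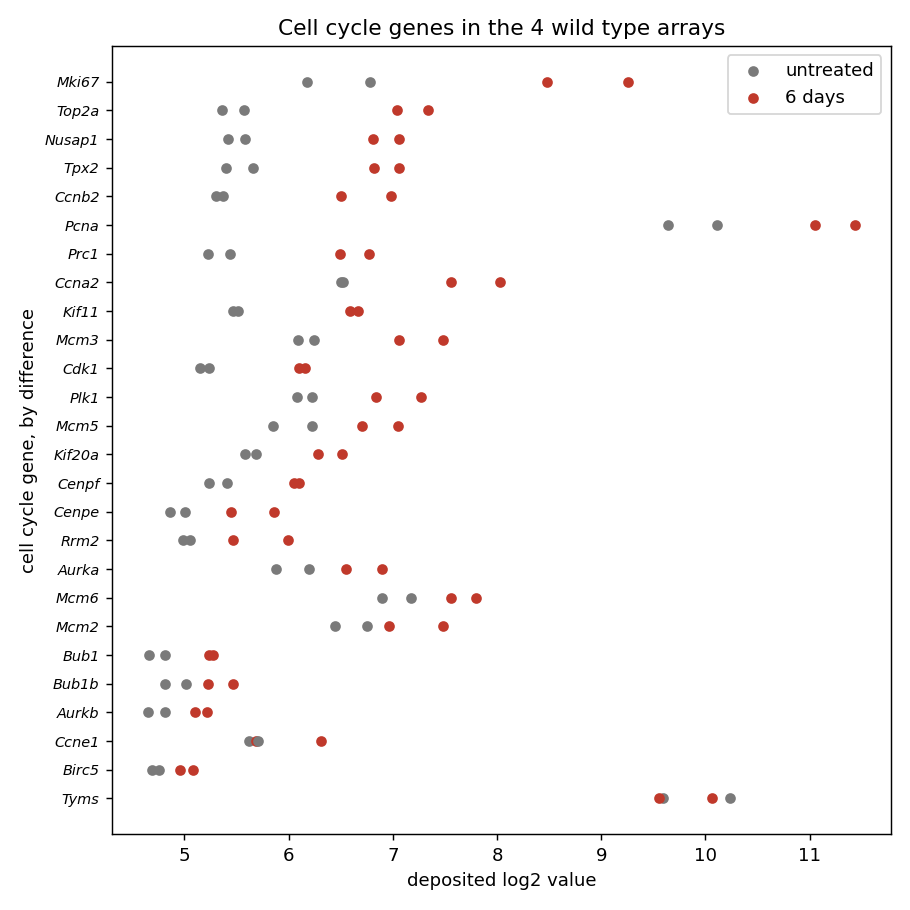
Deposited log2 values of the 26 measured cell cycle genes in the 4 wild type arrays, with grey points for untreated and red points for 6 days, ordered by difference. For 24 of the 26 genes both red points lie to the right of both grey points.

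The promoters of Mki67 and Top2a are printed because many genes of G2 and mitosis carry a pair of elements near their start, the CCAAT box bound by NF-Y and the cell cycle genes homology region (CHR) bound by the DREAM and MuvB complexes. The sequences are the RefSeq windows of assembly GRCm38.p6 from 250 bases before to 50 bases after the annotated start, 5′ to 3′ on the gene's strand. Capitals mark the letters CCAAT or TTTGAA on either strand (ATTGG and TTCAAA when read on the other strand). They are Mki67 at chr7:135716330-135716629, minus strand, and Top2a at chr11:99024140-99024439, minus strand.
Mki67: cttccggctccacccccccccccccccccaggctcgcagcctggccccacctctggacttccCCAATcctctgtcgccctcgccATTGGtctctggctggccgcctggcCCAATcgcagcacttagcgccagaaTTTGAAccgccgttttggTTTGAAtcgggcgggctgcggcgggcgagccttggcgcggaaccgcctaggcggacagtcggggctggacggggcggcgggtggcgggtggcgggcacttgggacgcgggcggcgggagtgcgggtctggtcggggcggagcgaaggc
Top2a: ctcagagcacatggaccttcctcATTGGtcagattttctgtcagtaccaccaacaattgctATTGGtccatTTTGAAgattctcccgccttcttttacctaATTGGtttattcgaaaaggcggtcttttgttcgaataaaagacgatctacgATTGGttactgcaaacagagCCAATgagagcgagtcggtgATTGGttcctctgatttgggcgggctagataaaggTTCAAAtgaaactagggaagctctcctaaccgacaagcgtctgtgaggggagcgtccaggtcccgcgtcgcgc
Mki67 held CCAAT matches starting at -188 and -141 and on the other strand at -166, with CHR letters at -116 and -98, counting bases from the start. Top2a held 6 CCAAT matches between -227 and -54 and 2 CHR matches, at -179 and -23. Of the 24 windows found for 23 of the cell cycle genes, 20 (83.3%) held CCAAT and 12 (50%) held the CHR letters. Over all 32851 windows the shares were 37.4% and 17.9%. These are matches of letters and not shown to be bound here, and genes without a window in the reference table were not counted.

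Immediate early genes, the first transcripts to respond to growth factors, stretch or stress, lay higher too. The list holds 22 genes, of which 21 were measured. At an unadjusted p under 0.05, 12 lay higher and none lower, against 4.58% of all genes higher. The groups did not overlap upward for 16, against 25.3%, and the median difference was 0.48. Beside Nr4a1 the largest differences were those of Jun, Fosl2 and Klf6, which encode an AP-1 subunit, a Fos-related AP-1 partner and a zinc finger factor. Jun stood at 7.33 and 6.83 untreated and at 8.40 and 9.64 at 6 days, 1.94 ± 0.51 higher (SE; adjusted p = 0.441). Fosl2 was 1.85 ± 0.56 and Klf6 1.67 ± 0.72 higher (SE). Replicate 2 at 6 days was the higher one in each of these genes, and the list mean was 6.62 and 7.22 in the 6-day arrays against 6.24 and 6.02 untreated. Without that array the count fell from 12 to 4, and without untreated replicate 1 or 2 it was 7 or 6. The tubule covariate gave 9, with a median of 0.28, against 3422 of all 30142 genes in either direction in that fit. For 17 of these genes 21 promoter windows were found, so some genes count more than once. Of these windows 5 (23.8%) held a CArG box, the element of serum response factor, against 1.63% of all windows.

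Genes known to respond to type I interferon lay higher in most cases, by moderate amounts. Of 26 listed, 25 were measured. At an unadjusted p under 0.05, 14 lay higher, against 4.58% of all genes, and none lower. For 22 of the 25 both 6-day arrays were above both untreated arrays, against 25.3% of all genes, and the median difference was 0.50. The list mean was 6.58 and 6.61 untreated and 7.13 and 7.02 at 6 days. Ifi27l2a, a small mitochondrial and nuclear membrane protein of the response, stood at 4.92 and 4.89 and then at 6.20 and 6.07, 1.23 ± 0.22 higher (SE; adjusted p = 0.215). Bst2, or tetherin, which holds budding virions on the cell surface, went from 6.95 and 7.26 to 8.47 and 8.17. Rsad2, or viperin, an antiviral radical-SAM enzyme, had 8.51 and 8.78 untreated and 10.01 and 9.08 at 6 days, so that its replicate 1 stood well above replicate 2. Oas1a, a 2′-5′ oligoadenylate synthetase, was 0.77 ± 0.25 higher (SE). Leaving out untreated replicate 1 gave 9 members in place of 14, and leaving out untreated replicate 2 or 6-day replicate 1 gave 8. With the tubule covariate it was 10, with a median of 0.32, against 3422 of all 30142 genes in either direction in that fit.

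The windows of Bst2 and Rsad2, the 2 members with the largest differences that have a window in the table, are shown because such genes are switched on through the interferon-stimulated response element (ISRE), bound by the ISGF3 complex and other interferon regulatory factors. Capitals mark the letters GAAA, any 2 bases and GAAA again, or on the other strand TTTC, any 2 bases and TTTC, again in RefSeq windows of GRCm38.p6. Bst2 lies at chr8:71537423-71537722 and Rsad2 at chr12:26456403-26456702, both on the minus strand.
Bst2: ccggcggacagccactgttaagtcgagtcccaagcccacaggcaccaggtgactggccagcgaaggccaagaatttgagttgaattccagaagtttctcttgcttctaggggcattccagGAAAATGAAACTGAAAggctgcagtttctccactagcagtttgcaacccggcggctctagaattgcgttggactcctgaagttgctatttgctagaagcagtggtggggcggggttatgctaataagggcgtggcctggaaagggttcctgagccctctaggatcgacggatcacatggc
Rsad2: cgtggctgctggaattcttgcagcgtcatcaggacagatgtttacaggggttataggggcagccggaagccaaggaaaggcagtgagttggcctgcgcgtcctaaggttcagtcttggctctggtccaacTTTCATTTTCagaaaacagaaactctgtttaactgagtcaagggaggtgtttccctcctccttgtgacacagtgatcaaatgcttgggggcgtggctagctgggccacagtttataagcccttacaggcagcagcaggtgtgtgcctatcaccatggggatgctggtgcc
In Bst2 the capitals are 2 overlapping matches, from -130 to -121 and from -124 to -115. Rsad2 held 1 match on the other strand, from -120 to -111. Among 23 windows of 19 genes of the list, 11 (47.8%) held the element, against 3.44% of all windows. For comparison, 1 of the 24 cell cycle windows (4.17%) held it.

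Antigen presentation on MHC class I was the list in which the groups overlapped least. All 12 measured members of 16 listed had both 6-day arrays above both untreated arrays, against 25.3% of all genes. Of these, 8 lay higher at an unadjusted p under 0.05, against 4.58% of all genes, and the median difference was 0.67. B2m, the light chain shared by class I molecules, stood at 14.66 and 14.61 untreated and at 15.80 and 16.14 at 6 days, 1.34 ± 0.48 higher (SE; adjusted p = 0.568). The heavy chain gene H2-D1 was 1.10 ± 0.29 higher (SE), and H2-K1, another, went from 11.09 and 10.85 to 12.04 and 11.91. Psmb10, an immunoproteasome subunit, was 0.89 ± 0.28 higher. These class I genes resemble each other, so their probesets may share signal. The count stayed between 7 and 10 when any 1 array was left out, and it was 8 with the tubule covariate. In the average over genotypes Erap1, which trims peptides for class I, and the immunoproteasome subunit Psmb8 passed, both with an adjusted p of 0.0339. With the 14 arrays 0 members passed there.

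Interferon gamma-responsive genes and MHC class II showed less. For 13 of 18 interferon gamma-responsive genes the groups did not overlap upward, against 25.3% of all genes, with a median of 0.30. Their largest differences were those of the guanylate-binding proteins Gbp7, Gbp3, Gbp9 and Gbp2, at 0.76, 0.76, 0.71 and 0.57. Among 10 class II genes the median was 0.32 and 8 did not overlap upward, to be read against the same share. H2-Eb1, a class II beta chain, stood at 8.47 and 8.36 untreated and at 8.86 and 9.11 at 6 days. Both medians were above the 0.03 of all genes.

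Markers of macrophages and monocytes lay higher among the leukocyte lists. All 23 were measured. At an unadjusted p under 0.05, 10 lay higher, against 4.58% of all genes, and none lower. The groups did not overlap upward for 15, against 25.3% of all genes, and the median was 0.43. The summed level, as the mean of the 23, was 6.47 and 6.39 untreated and 6.97 and 6.94 at 6 days. Ly6c2, a surface protein of inflammatory monocytes that other glomerular cells also express, stood at 12.61 and 11.55 and then at 13.46 and 13.81. Lyz2, the myeloid lysozyme, went from 7.41 and 7.19 to 8.60 and 9.02, 1.51 ± 0.41 higher (SE; adjusted p = 0.463). Ctss, the lysosomal protease cathepsin S, went from 5.97 and 6.10 to 7.56 and 7.16, 1.33 ± 0.24 higher (SE; adjusted p = 0.204). Leaving out either untreated array or 6-day replicate 1 lowered the count. With the tubule covariate it was 6, against 3422 of all 30142 genes in either direction in that fit. In the average over genotypes Ctss and Tyrobp passed, and 1 member did with the 14 arrays.

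Other leukocyte lists had smaller median differences and low levels. The untreated means were 5.02 and 5.01 for neutrophil and 4.81 and 4.79 for T and NK cell markers, below the array medians. For B and plasma cell markers they were 5.67 and 5.58, and for dendritic cell markers 5.82 and 5.88. Whether such low signal hides a difference was not tested. Neutrophil markers had a median of 0.23 over 16 genes, with 11 that did not overlap upward, against 25.3% of all genes. S100a9, an abundant calcium-binding protein of neutrophils, stood at 5.82 and 5.73 untreated and at 6.68 and 7.50 at 6 days. The medians of the T and NK cell, B and plasma cell and dendritic cell lists were 0.12, 0.10 and 0.03. Of 17 T and NK cell markers 8 did not overlap upward, of 13 B and plasma cell markers 5 and of 10 dendritic cell markers 2, against 25.3% of all genes. Cd8b1, a chain of the CD8 coreceptor named because it had the smallest p of its list, went from 5.09 and 5.06 to 5.42 and 5.55.

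Leukocyte adhesion, the step that brings these cells into the tuft, had a median of 0.49. Of 13 measured genes 12 had no overlap upward, against 25.3% of all genes. Itgb1, the integrin beta chain through which glomerular cells also hold to the basement membrane, stood at 11.25 and 11.19 untreated and at 12.72 and 12.69 at 6 days, 1.49 ± 0.40 higher (SE; adjusted p = 0.441). Vcam1 and Icam1, endothelial ligands of leukocyte integrins, had 6.77 and 6.72 and 8.17 and 8.06 untreated. At 6 days Vcam1 had 7.83 and 8.71 and Icam1 8.74 and 9.43. Both were higher in replicate 2. Itgb2, the beta chain of the leukocyte integrins and named because it had the smallest p of its list, was 0.74 ± 0.19 higher (SE).

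Among chemokines the largest difference was that of Cxcl13, which attracts B cells, at 8.20 and 7.06 untreated and 10.48 and 9.41 at 6 days, a difference of 2.31 ± 1.13 (SE; adjusted p = 0.761). Cxcl1, a neutrophil attractant, stood at 4.58 and 4.93 and then at 4.95 and 5.89. Its replicates at 6 days differed by more than the group means. Over 24 chemokines the median was 0.14, 11 lay above and 2 below without overlap, against 25.3% and 17% of all genes. Over 26 cytokines and receptors the median was 0.21, with 18 not overlapping upward, against 25.3% of all genes. Tgfb1, a driver of matrix production, went from 7.06 and 6.87 to 7.89 and 7.96.

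Complement genes had a median of 0.19 over 16 measured of 21 listed. The largest differences were those of regulators on the cell surface, Cd59a and Cd55, which block the terminal pore and the convertases. Cd55 stood at 10.12 and 9.27 untreated and at 10.89 and 10.35 at 6 days. Cfb, the alternative pathway's factor B, lay lower at 12.63 and 12.85 against 13.02 and 13.89. Over 7 Fc receptors the median was 0.14, and Fcer1g, the signalling chain of activating Fc receptors, was 0.62 ± 0.17 higher (SE).

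Coagulation genes included Fgg, 1 of the 15 largest differences, with replicates far apart. Of 20 measured, 7 lay higher at an unadjusted p under 0.05, against 4.58% of all genes, and none lower. The groups did not overlap upward for 14, against 25.3% of all genes, and the median was 0.53. Fgg, the gamma chain of fibrinogen, stood at 7.32 and 8.16 untreated and at 9.33 and 13.65 at 6 days, 3.75 ± 1.37 higher (SE; adjusted p = 0.585). The 6-day replicates of Fgg were further apart than the group means. Fga and Fgb, the other fibrinogen chains, shared this pattern, with 8.32 and 10.72 and 6.21 and 8.78 at 6 days against 7.90 and 7.71 and 5.59 and 6.00 untreated. F2r, the thrombin receptor, and Anxa2, the cell surface receptor of plasminogen and its activator, had closer replicates. F2r went from 9.72 and 9.09 to 11.32 and 12.19, and Anxa2 from 9.16 and 8.35 to 10.71 and 11.14. Leaving out either untreated array or 6-day replicate 2 lowered the count. With the tubule covariate it was 3 in place of 7, against 3422 of all 30142 genes in either direction in that fit. Fgg, Fga, Fgb and Thbd, which encodes thrombomodulin, passed in the average over genotypes, and with the 14 arrays 0 members did.

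Tubule injury markers were uneven in the same array. Havcr1, or Kim-1, made by injured proximal tubule, stood at 6.03 and 6.06 untreated and at 6.83 and 9.19 at 6 days, a difference of 1.96 ± 1.41 (SE; adjusted p = 0.910). Cdkn1a, the cell cycle inhibitor p21, went from 7.43 and 6.91 to 8.66 and 9.79. Replicate 2 was the higher 6-day array in both. Over 15 measured genes the median was 0.37 and 11 did not overlap upward, against 25.3% of all genes. With the tubule covariate the median was 0.08.

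Markers of the glomerulus' own cells lay higher on median in every list, while proximal tubule markers lay lower. The median difference was 0.70 over 17 podocyte markers, 0.64 over 17 endothelial, 0.45 over 13 mesangial and smooth muscle and 0.46 over 10 parietal epithelial markers. Over 18 proximal tubule markers it was -0.68, and 10 of them had both 6-day arrays below both untreated arrays, against 17% of all genes. With the tubule covariate, which is built from the podocyte and tubule lists themselves, the podocyte median was 0.07 and the proximal tubule median -0.01. The endothelial, mesangial and parietal lists, which are not part of the covariate, had medians of 0.16, 0.20 and -0.004 with it.

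Nes, the intermediate filament nestin of podocytes, had the largest podocyte difference, with 10.01 and 8.88 untreated and 11.62 and 11.62 at 6 days. Cdh5 and Pecam1, junction proteins of endothelium, went from 10.60 and 10.23 to 12.17 and 12.07 and from 9.95 and 9.46 to 11.11 and 11.22. Nos3, the endothelial nitric oxide synthase, was 0.97 ± 0.27 higher (SE) and is named because it alone of its list passed in the average over genotypes, at an adjusted p of 0.0339, which was 0.0872 with the 14 arrays. Acta2, the smooth muscle actin that marks activated mesangium, stood at 9.19 and 8.83 untreated and at 10.66 and 11.68 at 6 days, 2.16 ± 0.58 higher (SE; adjusted p = 0.447). Mcam and Des, an adhesion molecule and the muscle intermediate filament desmin, were 1.74 ± 0.68 and 1.05 ± 0.44 higher (SE). For these markers the groups did not overlap, and the gain or loss of cells was not measured.

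On the tubule side Slc5a2, the glucose carrier of the early proximal tubule, stood at 11.25 and 13.40 untreated and at 11.37 and 10.91 at 6 days. Its untreated replicates were further apart than the groups. Pck1, of gluconeogenesis, went from 14.88 and 15.29 to 14.04 and 14.29. Over 18 markers of the loop of Henle, distal nephron and collecting duct the median was 0.07, and 5 lay below without overlap, against 17% of all genes.

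Matrix genes were described in 3 lists. Among 16 basement membrane genes the median was 0.45 and 11 did not overlap upward, against 25.3% of all genes. With the tubule covariate their median was 0.15. Nid1 and Nid2, the nidogens that link laminin with type IV collagen, were 1.22 ± 0.73 and 1.08 ± 0.43 higher (SE), and Lamc1, the gamma chain of most laminins, 0.97 ± 0.37. The 23 interstitial and matricellular genes had a median of 0.17 and ran from -0.42 to 3.03. Ccn1, a matricellular protein induced by stretch and growth factors, stood at 9.03 and 7.71 untreated and at 10.40 and 12.39 at 6 days, 3.03 ± 0.73 higher (SE; adjusted p = 0.365). Sparc, a collagen-binding protein, went from 12.89 and 12.64 to 14.59 and 14.80. Tnc, tenascin C, was 1.92 ± 0.55 and Thbs2, thrombospondin 2, 1.46 ± 0.37 higher (SE).

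Proteases of the matrix and their inhibitors had a median of 0.32 over 18 genes, with 13 not overlapping upward, against 25.3% of all genes. Adamts1, which cuts proteoglycans, stood at 9.90 and 9.54 and then at 11.46 and 12.26, 2.14 ± 0.54 higher (SE; adjusted p = 0.396). Timp2, an inhibitor of metalloproteinases, and Mmp2, a gelatinase that it helps to activate, were 1.74 ± 0.54 and 1.03 ± 0.44 higher (SE).

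Metabolic genes, most of which the proximal tubule also expresses, had medians near that of all genes or below it. Fatty acid oxidation had a median of -0.25 over 23 genes, with 7 below and 0 above without overlap, against 17% and 25.3% of all genes. Acaa1b, a peroxisomal thiolase, stood at 10.29 and 10.86 untreated and at 9.55 and 9.68 at 6 days, a difference of -0.96 ± 0.24 (SE; adjusted p = 0.396), and it passed in the average over genotypes (adjusted p = 0.0200) but not with the 14 arrays (adjusted p = 0.0621). Oxidative phosphorylation had a median of -0.19 over 25 genes, with 8 below and 0 above, to be read against the same shares. In fatty acid and triglyceride synthesis the median was -0.08 over 19 genes. Gpam, which starts glycerolipid synthesis, stood at 10.34 and 10.25 and then at 9.43 and 9.26, and Mlxipl, the carbohydrate-responsive factor ChREBP, went from 11.89 and 11.74 to 10.68 and 11.28. Cholesterol synthesis and uptake had a median of 0.10 over 13 genes. With the tubule covariate the medians of fatty acid oxidation, oxidative phosphorylation and fatty acid and triglyceride synthesis turned positive, at 0.05, 0.23 and 0.07, and that of cholesterol synthesis and uptake was 0.23.

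Lipid mediators included 1 of the clearer differences outside the 10 genes. Ptgs2, the inducible cyclooxygenase COX-2, stood at 5.15 and 5.11 untreated and at 5.80 and 6.71 at 6 days, 1.12 ± 0.23 higher (SE; adjusted p = 0.267), and it passed in the average over genotypes (adjusted p = 0.0226) but not with the 14 arrays (adjusted p = 0.0680). Alox5ap, the partner of 5-lipoxygenase in leukocytes, and Ltc4s, leukotriene C4 synthase, were 0.94 ± 0.39 and 0.56 ± 0.16 higher (SE). The whole list of 19 genes had a median of 0.11. Fabp4, a fatty acid carrier of adipocytes, capillary endothelium and macrophages, went from 8.99 and 9.08 to 10.41 and 10.69, while the adipocyte list of 8 genes had a median of 0.05.

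**Figure D3:**
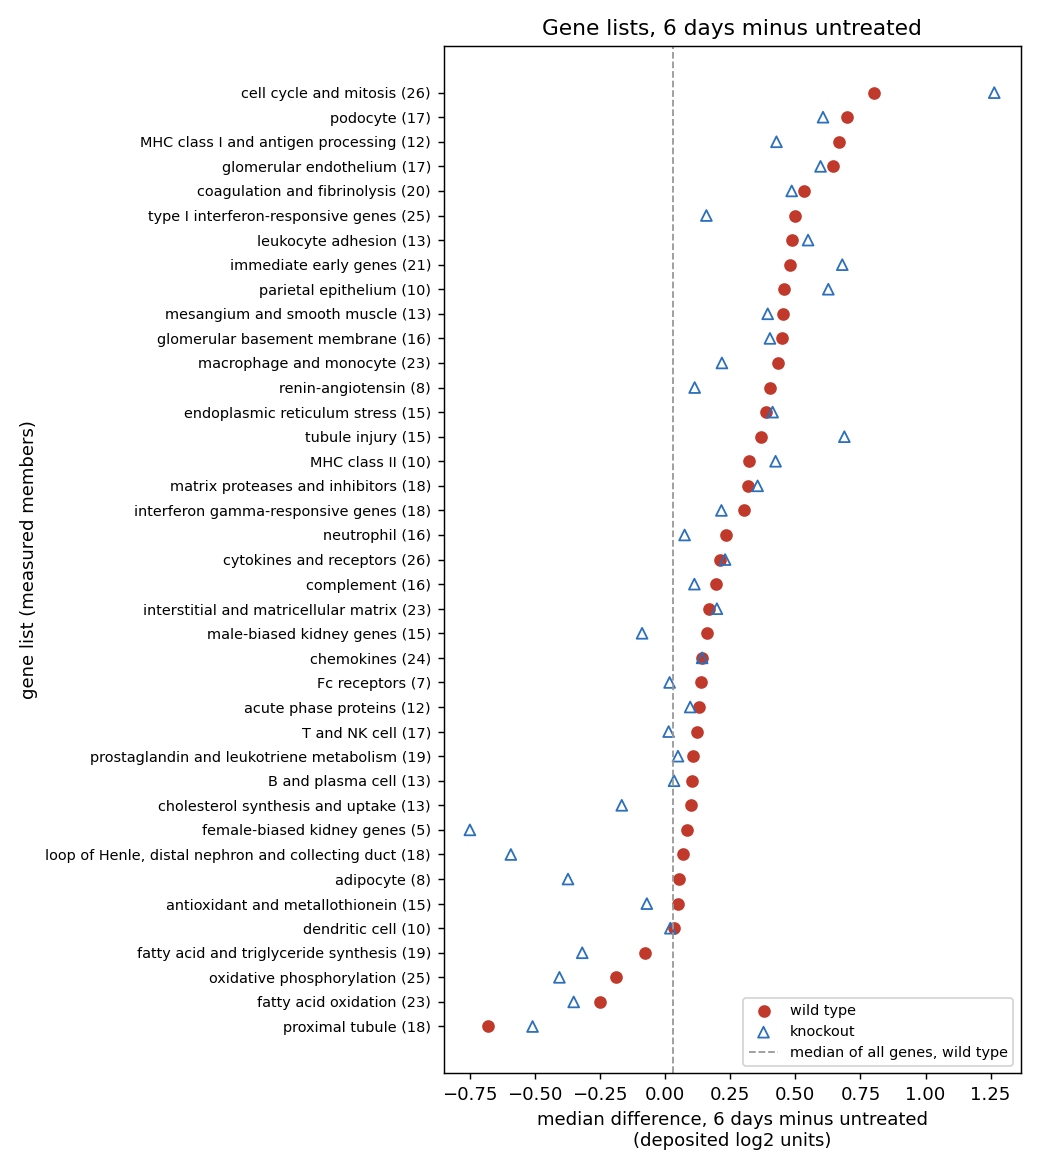
Median over the measured members of each gene list with at least 5 of them, of the 6-day minus untreated difference in deposited log2 units, with red circles for wild type, open blue triangles for knockout and a dashed line at the wild type median of all genes, 0.03. Cell cycle genes have the highest wild type median, 0.80, and proximal tubule markers the lowest, -0.68.

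The knockout arrays give the same interval from 4 other mice. Both differences come from the same fit with the same spread per gene, so a gene of low spread tends to a small p in both. Shared counts below are not wholly separate evidence for that reason. Across all genes the wild type and knockout differences had a Pearson's r of 0.68 and a Spearman's rho of 0.48, given as a description across genes, which are not independent replicates. Of all genes 63.9% had the same sign in both, and of the wild type genes at an unadjusted p under 0.05 90% had. In knockout 4 genes were called higher (0.0133%) and none lower: C4b, C4a and the numbered transcripts Gm13232 and Gm13237. At an unadjusted p under 0.05, 1375 genes (4.56%) lay higher there, and 656 of them were also among the 1380 of wild type, which is 47.7% of the knockout and 47.5% of the wild type genes. Among lower genes 272 were shared, 31.1% of the 875 knockout genes (2.9%) and 37.5% of the wild type genes.

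**Figure D4:**
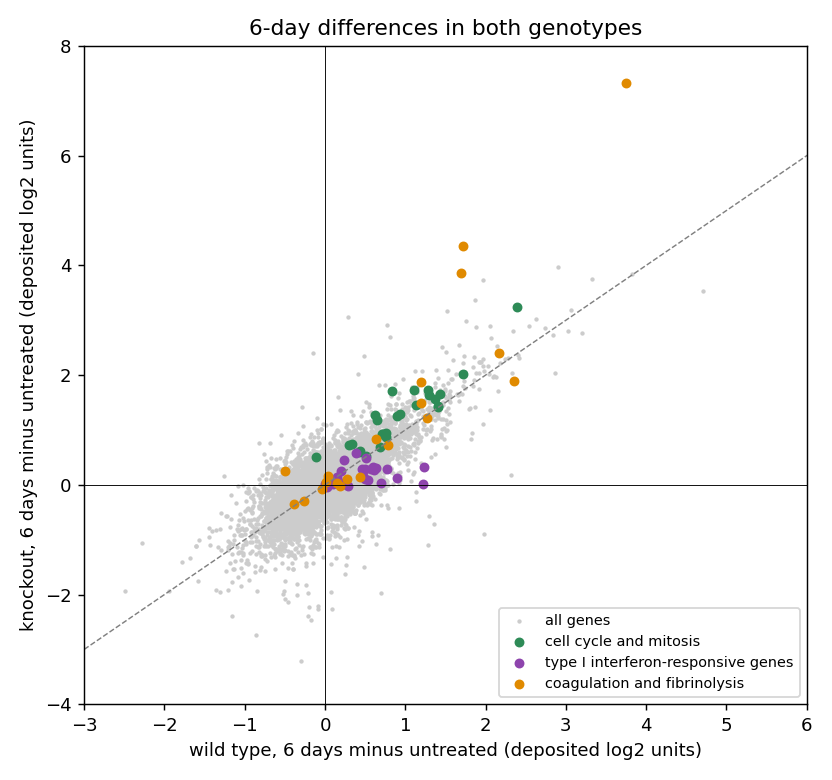
The 6-day minus untreated difference of each of 30142 genes in wild type (x axis) and in knockout (y axis), both in deposited log2 units, with 3 gene lists in colour and a dashed line of equality. The cell cycle genes (median 0.80 in wild type and 1.26 in knockout) spread along both axes, the type I interferon genes (0.50 and 0.16) lie mostly below the line of equality, and Fgg lies far above it at 3.75 and 7.32.

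No difference between the responses of the genotypes passed: limma called 0 genes, with a smallest adjusted p of 1 and 395 genes (1.31%) at an unadjusted p under 0.05. The 3 named genes with the smallest p were C4b, C4a and Fam47c. C4b, the complement component C4, stood at 6.14 and 6.27 untreated and at 6.08 and 6.89 at 6 days in wild type, and at 6.96 and 7.30 and then 9.87 and 10.52 in knockout. The knockout difference was larger by 2.78 units, and the knockout groups did not overlap. C4a, a near-identical neighbour whose probes may share its signal, had 0.16 in wild type and 1.61 in knockout. Type I interferon genes had a median of 0.50 in wild type and 0.16 in knockout, with 14 and 0 of 25 higher at an unadjusted p under 0.05. For 3 of the 25, Ifi27l2a, Bst2 and Xaf1, the difference of responses had an unadjusted p under 0.05 toward a smaller one in knockout, against 0.763% of all genes, and none passed. Cell cycle genes had a median of 0.80 in wild type and 1.26 in knockout, and for none of the 26 did the difference of responses reach an unadjusted p of 0.05.

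Other times in wild type place these values, with the limit that the 18-hour and 2-week differences are taken from the same untreated arrays. At 18 hours 0 genes were called, with 1186 (3.93%) at an unadjusted p under 0.05, and at 2 weeks 1450 (4.81%) were called higher and 974 (3.23%) lower. The cell cycle median was -0.07 at 18 hours, 0.80 at 6 days and 1.28 at 2 weeks. For immediate early genes these medians were 0.03, 0.48 and 0.72, and for macrophage markers 0.04, 0.43 and 0.91. Proximal tubule markers had -0.00, -0.68 and -2.12. Type I interferon genes had 0.01, 0.50 and 0.55. Wild type 18-hour replicate 2 is the array that stood with the other genotype. Without both 18-hour replicates 2, an alternative added after the data were seen, 0 genes were called at 18 hours and 779 (2.58%) had an unadjusted p under 0.05. The 18-hour medians were then -0.12 for cell cycle, -0.04 for immediate early, 0.23 for macrophage, -0.18 for proximal tubule and 0.03 for type I interferon genes.

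**Figure D5:**
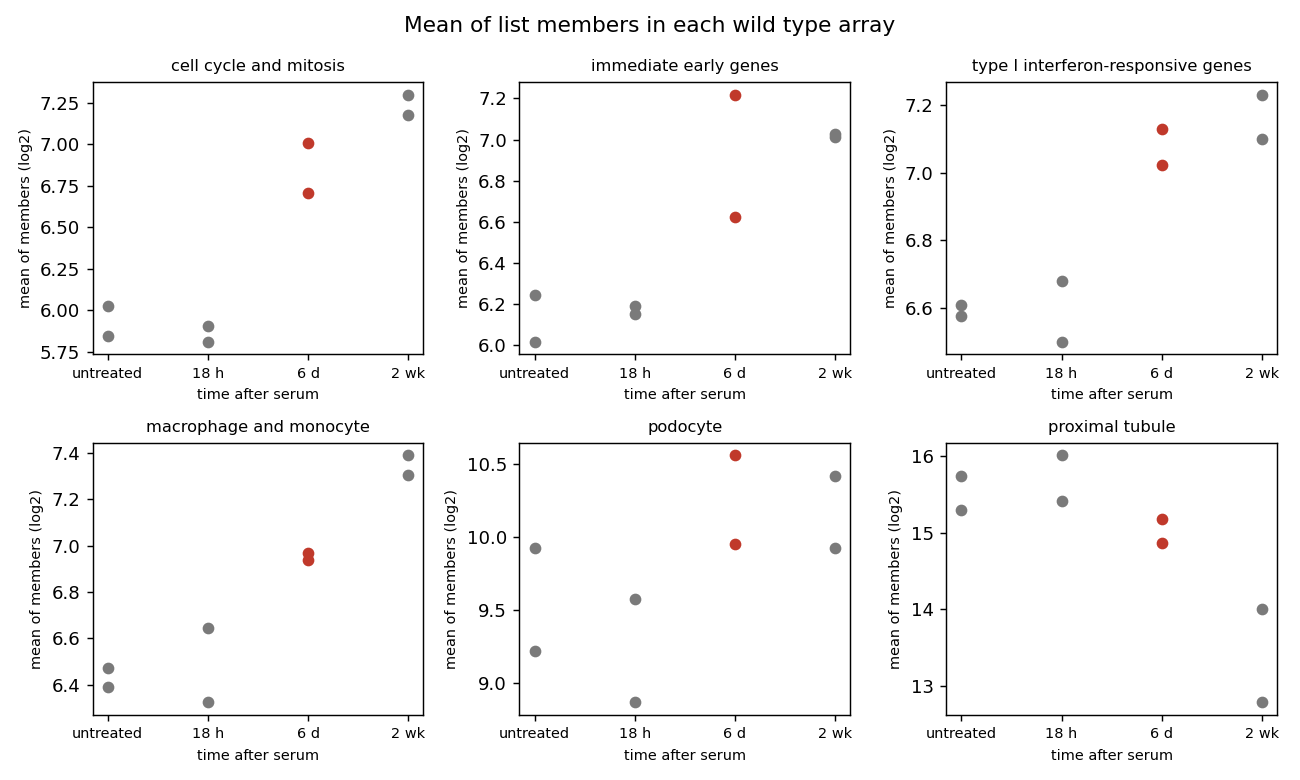
Mean deposited log2 value of the measured members of 6 gene lists in each of the 8 wild type arrays, by time after serum, with 1 point per array and the 6-day arrays in red. In the cell cycle panel both 6-day points, 6.71 and 7.01, lie above the untreated 5.84 and 6.02, and in the podocyte panel the lower 6-day point, 9.95, lies just above the higher untreated one, 9.93.

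Some single genes were furthest from untreated at 6 days and others at 2 weeks. H2ac15 differed from untreated by 0.18, 1.97 and 0.61 at 18 hours, 6 days and 2 weeks. Tagln differed by 0.52, 3.82 and 1.37 and Myl7 by 0.99, 2.33 and 0.24. Adm, Nr4a1, Rhoc, Tyrobp and Ifrd1 were also above untreated at 2 weeks, by 3.92, 1.86, 1.26, 1.31 and 0.64. Their limma adjusted p at 2 weeks was 0.0203, 0.0496, 0.0325, 0.00653 and 0.0363. At 6 days these genes had differed by 4.71, 3.20, 2.02, 1.03 and 0.91, so only Tyrobp was further from untreated at 2 weeks. Havcr1 differed by 6.84 at 2 weeks against 1.96 at 6 days. All 8 lower genes were also lower at 2 weeks. Of these, 7 were called there, against 3.23% of all genes called lower, and Adat1 was not (-0.36, limma adjusted p = 0.0732). The 8 had been picked by their 6-day p against the same untreated arrays and with the same spread. Their count at 2 weeks is therefore not separate evidence. The differences of the 7 ran from -1.44 in Slc43a2 to -0.52 in Zfp39, with adjusted p from 0.0110 in Fbxo21 to 0.0298 in Zfp39. Whether 6 days and 2 weeks differ from each other was not tested.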

How the data were processed

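The authors deposited log2 values for 72688 probesets on 16 arrays, summarised and normalized before deposit. RNA (10 ng) had been amplified with a Pico kit, per the labels' protocols. The submitters' processing notes name the Affymetrix Expression Console and the Transcriptome Analysis Console, without versions or a summarisation method. Probesets with exactly 1 symbol (30604) were kept, those with several (2146) or none (39938) left out, symbols of 827 updated through the Entrez identifier, and for 355 genes with several probesets the one with the highest mean over 16 arrays taken, which left 30142 genes. No brightness filter was applied.

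With limma 3.58.1 under R 4.3.3, a model of 8 group means was fitted to the 16 arrays, using an intensity trend (8 residual degrees of freedom, prior 3.03). Benjamini-Hochberg adjustment ran over all 30142 genes, and an adjusted p under 0.05 was a call. Each SE is that of the moderated fit, and with 2 mice a group the precision is limited by the number of arrays. The procedure was tested on simulated data. The members and the 40 gene lists were chosen with earlier results of these data known. Since no gene was called, the rule for naming gave the 10 smallest p-values, up to 4 members per list by absolute difference and 3 for the difference of responses; numbered transcripts, small RNAs and receptor segments were counted and not named, and the genes outside the rule (the 8 lower genes, Vim, Ch25h, Erap1, Psmb8, Fgb, Thbd, Nos3, Itgb2, Cd8b1, Xaf1, Sod2) were chosen after their values were seen. Replicate numbers were not treated as pairs. Deviations of same-numbered untreated and 6-day arrays correlated at -0.06 in wild type and 0.10 in knockout. With so few arrays this cannot show whether same-numbered mice were handled together. Alternatives changed the filter, probeset choice, normalization, moderation, arrays, block and covariate. Promoter windows (32851 of 27025 genes) came from RefSeq, GRCm38.p6.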

Additional observations from a re-analysis of the deposited data

Results flagged for a closer look

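In 2 of the 138 genes followed in the text the genotypes moved apart without overlap, with both 6-day arrays above both untreated arrays in wild type and below them in knockout. Over all 30142 genes 595 had this pattern, 101 of them with an unadjusted p under 0.05 for the difference of responses. In both genes the nearest knockout arrays were almost equal. Alas2, the first enzyme of haem synthesis in erythroid cells, stood at 7.81 and 6.63 untreated and at 8.56 and 8.48 at 6 days in wild type, and at 8.19 and 7.62 and then 7.61 and 7.06 in knockout. The knockout response minus the wild type response was -1.87 ± 0.50 (SE; unadjusted p = 0.00319, limma adjusted p = 1). Fam47c went from 4.48 and 4.52 to 5.24 and 5.01 in wild type and from 5.31 and 4.87 to 4.81 and 4.86 in knockout, a difference of responses of -0.88 ± 0.21 (SE; unadjusted p = 0.00138, limma adjusted p = 1). Neither difference passed the test across all genes. Of 8 erythroid markers 3 were measured, with a median difference of 0.12 in wild type and -0.57 in knockout.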

How the results depend on the processing

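The wild type count of 0 calls held with dim genes left out, averaged or all probesets, quantile normalization, median centring, other moderation, only the groups compared, and the 14 and 12 arrays. It was 65 with array weights (52 higher), 2 with the 13 arrays, 5 with wild type arrays only, 4 with the tubule covariate, and 268, 32 and 804 when averaged over both genotypes with 16, 14 and 13 arrays. Leaving out 1 array gave 0 to 42. The knockout count of 4 was 12 without dim genes, 666 with array weights, 46 with the 13 arrays, 13 with the covariate and 0 with all probesets, quantile normalization, only the groups compared, and the 14 and 12 arrays, and 0 to 200 when 1 array was left out. The count of 0 for the difference of responses held under every alternative run. With the replicate number as a block the counts were 0, 5 and 0. Of 138 genes followed under every alternative that kept them, the 1 change of direction was that of C4b in wild type without 6-day replicate 2, with -0.12 to 0.69 over the arrays left out, and the cause was not tested.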

Other observations

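Genes of endoplasmic reticulum stress had a median 6-day difference of 0.39 in wild type and 0.41 in knockout over 15 measured genes. In wild type 11 of them did not overlap upward, against 25.3% of all genes. Hspa5, the chaperone BiP, stood at 12.13 and 11.91 untreated and at 12.63 and 12.54 at 6 days, and Atf4, a transcription factor of the integrated stress response, went from 8.93 and 8.71 to 9.22 and 9.72. Acute phase proteins had a median of 0.13 over 12 genes, and Serpina3n, a protease inhibitor of that response, was 0.58 ± 0.12 higher (SE; limma adjusted p = 0.267), with 4.81 and 4.77 untreated and 5.28 and 5.45 at 6 days. Among 15 antioxidant and metallothionein genes the median was 0.05, and Sod2, the mitochondrial superoxide dismutase, stood at 10.18 and 10.45 untreated and at 9.64 and 9.70 at 6 days. The 8 genes of the renin-angiotensin list had a median of 0.40 and 7 that did not overlap upward, against 25.3% of all genes. None of the 8 reached an unadjusted p under 0.05 in limma.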
